A study of Mus musculus with 15 samples.

Results

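Cell line Sp7 regions that coincided with regions of both Dlx5 and Sp1, and were absent from the primary osteoblast Sp7 regions, are described here as triple regions. They were found from lists of ChIP-seq peaks, stretches of genome enriched when chromatin is pulled down with an antibody, here the M2 antibody against a FLAG tag. A shared region of a factor was a stretch of merged peaks that held a peak of each of its 2 lists and left aside any place where the FLAG control of those cells had a peak. Of 5018 shared Sp7 regions in MC3T3-E1 cells, 1071 (21.3%) met at least 1 bp of a Dlx5 and of an Sp1 region and none of the 2097 primary Sp7 regions. The members were chosen by the presence of peaks in these lists, so their overlap with Dlx5 and Sp1 is a definition and not a finding. For scale, 84.4% of all cell line Sp7 regions met a Dlx5 region, 30.3% an Sp1 region and 16.6% a primary Sp7 region.

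The cell line libraries came from MC3T3-E1, a line of pre-osteoblasts from mouse calvaria, at passages 5 to 10, grown for 1 week with BMP2 at 10 ng/ml, beta-glycerophosphate at 10 mM and ascorbic acid phosphate at 50 ug/ml. They carried FLAG-tagged Sp7mut, Sp7, Dlx5 or Sp1, with 2 libraries each, and GFP as the control, with 1 library. The primary libraries came from calvarial osteoblasts of C57BL/6 mice at postnatal day 1, 2 of genotype Sp7-BioFL/BioFL and 1 wild type. The labels state neither how MC3T3-E1 cells were made to express the factors nor which residues Sp7mut changes, and nothing says that replicates were separate cultures. Each factor was profiled in its own libraries, so a triple region is a place where 3 sets of cells gave a peak, and binding of 3 proteins to the same DNA molecule was not measured.

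Sp7, also called Osterix, is a zinc finger factor of the Sp family that osteoblasts need to form, and the series' title places it beside Dlx factors as their co-factor. Dlx5 is a homeodomain factor of the developing skeleton, and such factors bind AT-rich sites. Sp1, a relative of Sp7, is expressed in most cells and binds GC-rich boxes that are common at promoters. The triple regions are those where a partner of each kind was found beside Sp7.

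The lists hold positions only, with no score or read count, so sequencing depth is unknown and the strength of a peak cannot be read. Their lengths were uneven within a factor. Sp7 had 18624 and 6063 peaks, Dlx5 30234 and 39749, Sp1 10549 and 28210, and Sp7mut 10519 and 14830, against 269 in the GFP control. Sp7 and Dlx5 peaks were called against a first input library and Sp1 and Sp7mut peaks against a second, so a likeness between Sp1 and Sp7mut cannot be told apart from a shared input. Rows do not follow the genome, and what orders them is not stated. A row position is given here as a percentage of its list, with 0 at the first row, and is not a strength. The lists also hold peaks as narrow as 4 bp, and 2.13% to 4.47% of the peaks of the cell line factor lists were under 50 bp wide.

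As Sp7 had the fewest shared regions of the 3 factors, triple regions were a larger part of its set than of the partner sets. Members were met by 1081 (4.56%) of the 23682 Dlx5 regions and by 1070 (12.0%) of the 8937 Sp1 regions. Another 78 regions held Sp7, Dlx5 and Sp1 and also a primary Sp7 region, and so were no members. Primary Sp7 thus met 78 of 1149 regions with all 3 cell line factors (6.79%), and 736 of 3087 Sp7 and Dlx5 regions without Sp1 (23.8%). It met 6 of 373 Sp7 and Sp1 regions without Dlx5 (1.61%). With the primary regions set aside, the classes to compare were 1071 triple regions, 2351 Sp7 and Dlx5 regions without Sp1, 367 Sp7 and Sp1 regions without Dlx5, and 398 Sp7 regions with neither.

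Overlap of the members was deep for most and slight for a few. The median overlap was 175 bp with the Dlx5 region and 151 bp with the Sp1 region. Those lengths were 89.4% and 76.8% of the Sp7 region at the median. Under 50 bp was shared with Dlx5 in 12 members and with Sp1 in 35. Just inside the rule stood chr17:21703499-21703873, chr4:94718331-94718913 and chr2:27395433-27395684 (mm9), which shared 1, 2 and 7 bp with an Sp1 region. Just outside stood chr15:101097280-101097500 and chr2:32251326-32251543, whose edge touched an Sp1 region without a shared base, and chr15:36538631-36538709, which lay 2 bp from one.

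Whether a region was a member turned largely on the shorter Sp1 list. Among the 2351 Sp7 and Dlx5 regions without a shared Sp1 region, 1312 held a peak of Sp1 list 2 alone, 39 a peak of list 1 alone and 18 peaks of both lists that did not count as a shared region. No Sp1 peak of either list lay on 982 of them. Without Sp1 list 1, the members numbered 2380, and without Sp7 list 2 they numbered 2123. Leaving out the first list of each cell line factor gave 2604, and leaving out the second 2574. A factor with a single list needs no second peak, so the 1071 regions are the strict end of a wider set.

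Sp7mut, which the rule did not use, met the triple regions more often than Sp7 regions lacking both Sp1 and primary Sp7. An Sp7mut region lay on 941 of the 1071 triple regions (87.9%, 95% Clopper-Pearson interval 85.8 to 89.8), against 69.6% of all cell line Sp7 regions. It lay on 57.2% (55.1 to 59.2) of Sp7 and Dlx5 regions without Sp1, 78.2% (73.6 to 82.3) of Sp7 and Sp1 regions without Dlx5, and 40.5% (35.6 to 45.5) of Sp7 regions with neither. Sp7 and Dlx5 regions without Sp1 that met primary Sp7 are outside these classes, and 668 of those 736 met Sp7mut. The intervals cover counting error only.

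Single lists gave the replicate spread. At triple regions, 92.0% held a peak of Sp7mut list 1 and 94.5% a peak of list 2, a mean of 93.2 ± 1.78% (SD, n = 2), where these lists met 73.8% and 83.6% of all Sp7 regions. At Sp7 and Dlx5 regions without Sp1 the shares were 61.4% and 77.5%, or 69.5 ± 11.4% (SD, n = 2). At Sp7 and Sp1 regions without Dlx5 they were 84.2% and 89.1%, or 86.6 ± 3.47% (SD, n = 2). Both lists thus stood higher at triple regions than either list did in the other classes that lack primary Sp7. The same 2 lists were read in every class, and an exact paired permutation test over 2 lists cannot go under p = 0.5, so the differences were tested over chromosomes.

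**Figure D1:**
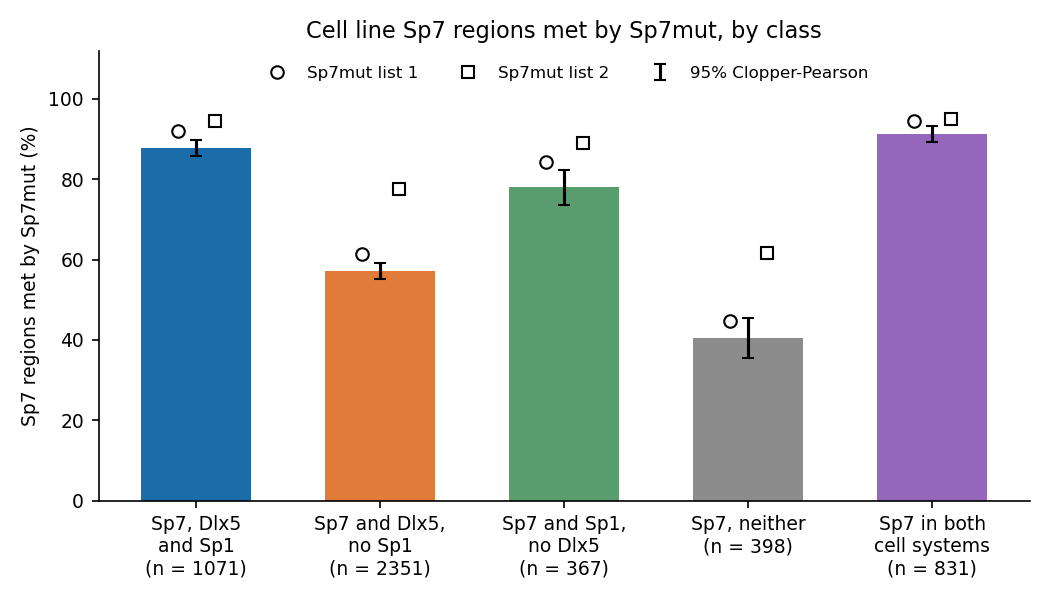
Percentage of cell line Sp7 regions met by Sp7mut in 5 classes, with bars for shared Sp7mut regions, 95% Clopper-Pearson intervals, and open symbols for each of the 2 Sp7mut lists. Triple regions, at the left, reach 87.9%, Sp7 and Dlx5 regions without Sp1 57.2%, and Sp7 regions of both cell systems 91.3%.

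Against Sp7 and Dlx5 regions without Sp1, the Sp7mut share of triple regions was higher by 30.7 percentage points, and the direction was the same on each of 20 chromosomes. A two-sided exact sign test gave p = 1.91e-06, or 1.22e-05 adjusted by Benjamini-Hochberg for the 16 contrasts made. It was higher on all 20 with Sp7mut list 1 and on 19 of 20 with list 2, where the gap was 16.9 points. Without Sp1 list 1, which raised the members to 2380, it was 27.7 points. With primary Sp7 not used, so that regions meeting it stayed in both classes, the gap was 23.4 points. Against Sp7 regions with neither partner the gap was 47.4 points, with triple regions higher on 19 of 19 chromosomes where the shares differed (exact p = 3.81e-06, adjusted 1.22e-05). Chromosomes are not replicate libraries, so these tests speak of these lists. Both reference classes lack Sp1, and Sp1 and Sp7mut peaks were called against the same input. These gaps therefore cannot be told apart from a shared input.

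The gap to Sp7 and Sp1 regions without Dlx5 was smaller and less firm. It was 9.66 points and was seen on 16 of 20 chromosomes (exact sign test, p = 0.0118, adjusted 0.0210). With Sp7mut list 2 alone it was 5.39 points (13 chromosomes against 6; exact sign test, p = 0.167). Without Sp7mut list 2 it was 7.68 points (exact p = 0.0192), without replicate 2 of every cell line factor 21.2 points (exact p = 1.91e-06), without Dlx5 list 1 8.76 points (exact p = 0.0636) and without Dlx5 list 2 9.87 points (exact p = 0.167). Compared within 5 equal parts of the Sp7 regions by row position (quintiles), it was 2.30 points, with triple regions higher on 7 chromosomes and lower on 10 (exact sign test p = 0.629). Sp7 regions of both cell systems had an Sp7mut share of 91.3%, and the difference of -3.47 points from them did not pass the test (exact sign test p = 0.115, adjusted 0.154).

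The gap between triple regions and Sp7 and Dlx5 regions without Sp1 was smallest in the first rows and present in every quintile of the Sp7 list. In quintile 1, 97.1% of 204 triple regions met Sp7mut, and 89.6% of 318 Sp7 and Dlx5 regions without Sp1. In quintile 2 the shares were 93.6% of 312 and 73.3% of 431, and in quintile 3 86.4% of 242 and 56.8% of 519. In quintile 4 they were 83.1% of 189 and 47.2% of 561, and in quintile 5 68.5% of 124 and 35.1% of 522. Weighted by the members in each quintile, triple regions were higher by 24.2 points. They were so on 19 of 20 chromosomes (exact sign test, p = 4.01e-05, adjusted 9.16e-05). In quintiles 2, 3 and 4, the 93.6%, 86.4% and 83.1% of triple regions stood beside 95.6%, 89.6% and 82.3% of Sp7 and Sp1 regions without Dlx5. The gap lay at the ends, at 97.1% of 204 against 85.7% of 7 in quintile 1 and 68.5% of 124 against 57.1% of 119 in quintile 5.

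**Figure D2:**
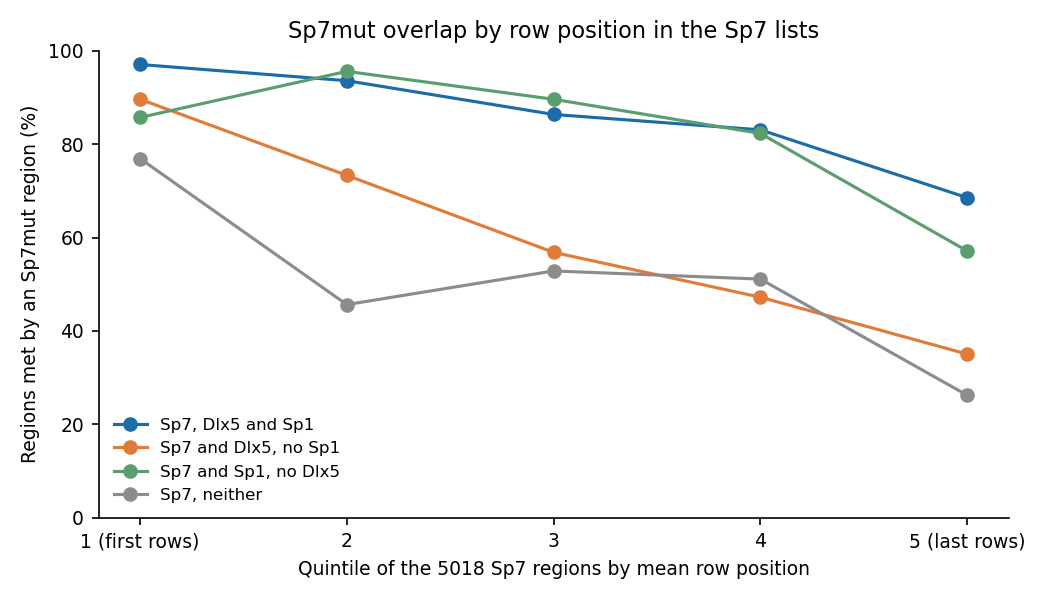
Percentage of regions met by an Sp7mut region in each quintile of the 5018 Sp7 regions by mean row position, from first to last rows, for 4 classes that lack a primary Sp7 region. The line of triple regions falls to 68.5% in quintile 5, while that of Sp7 and Dlx5 regions without Sp1 falls to 35.1%; quintile 1 holds only 7 Sp7 and Sp1 regions without Dlx5.

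A lone Sp1 peak went with an Sp7mut share between those of members and of regions without Sp1. Among Sp7 and Dlx5 regions, Sp7mut met 87.9% of the members, 65.0% (62.4 to 67.6) of the 1312 with a peak of Sp1 list 2 alone, and 46.1% (43.0 to 49.3) of the 982 with no Sp1 peak. It met 69.2% of the 39 with a peak of list 1 alone, and 61.1% of the 18 non-members with peaks of both lists. The non-members with a peak of Sp1 list 2 alone and those with no Sp1 peak had median mean row positions of 39.3% and 37.5% in the Sp7 lists. Members stood earlier, at 28.2%. In Dlx5 list 1 the medians were 15.3%, 11.4% and, for members, 32.6%. The part of row position in these shares was not tested. Regions called in 1 Sp1 list only were defined after these counts had been seen, and their difference was not tested.

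Seen from the partners, Sp7 at a region went with Sp7mut as well. Of the 1081 Dlx5 regions at members, 87.3% met Sp7mut. Of 1588 Dlx5 regions with Sp1 but neither cell line nor primary Sp7, 44.3% (41.9 to 46.8) did, and of 17205 Dlx5 regions with none of these, 9.49%. Among Sp1 regions the shares were 87.8% of the 1070 at members, 45.6% of 1600 with Dlx5 but no cell line Sp7, and 21.1% of 5813 with neither. No test was made of these shares, since the presence of Sp7 enters the rule.

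Most triple regions held both Sp7mut lists, as did most Sp7 regions of each class but that with neither partner. Both had a peak on 946 members (88.3%), 1 of them on 105 and neither on 20. Both also had a peak on 763 of 831 regions of both cell systems and on 292 of 367 Sp7 and Sp1 regions without Dlx5. They did so on 1343 of 2351 Sp7 and Dlx5 regions without Sp1, and on 155 of 398 Sp7 regions with neither. On the Sp7 region itself, all 6 lists of Sp7, Dlx5 and Sp1 had a peak at 1007 members. At the other 64, a Dlx5 or Sp1 region reached the Sp7 region with only part of its peaks.

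Row positions placed the members differently in each list. These values describe the members and were not tested, since presence in the Sp7, Dlx5 and Sp1 lists chose them. In Sp7 list 1 the median position of triple regions was 10.9% of the list, and in list 2 it was 42.6%. Sp7 and Dlx5 regions without Sp1 stood later, at 21.2% and 49.9%, and regions of both cell systems earlier, at 6.47% and 13.1%. In list 2, 19.4% of triple regions were in the first 20% of rows, so they did not gather at its start. List 2 is 6063 rows long and list 1 18624, and the part of this difference in length in the positions was not tested.

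The Dlx5 lists ran the other way. Triple regions stood at medians of 32.6% and 32.5% in the Dlx5 lists, and Sp7 and Dlx5 regions without Sp1 at 13.8% and 13.0%. Of the triple regions, 31.4% and 30.3% had a peak in the first 20% of the Dlx5 rows, where 61.9% and 64.4% of Sp7 and Dlx5 regions without Sp1 did. Regions of both cell systems stood earlier still, at 3.02% and 2.08%. Triple regions thus stood earlier than Sp7 and Dlx5 regions without Sp1 in the Sp7 lists and later in the Dlx5 lists.

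In the Sp1 lists, triple regions were placed much like Sp7 and Sp1 regions without Dlx5. Their medians were 33.2% in Sp1 list 1 and 9.39% in list 2, against 32.1% and 9.75% in the class without Dlx5. In the Sp7mut lists they stood at 18.9% and 15.3%, and Sp7 and Dlx5 regions without Sp1 at 33.4% and 27.2%, where a peak was present.

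**Figure D3:**
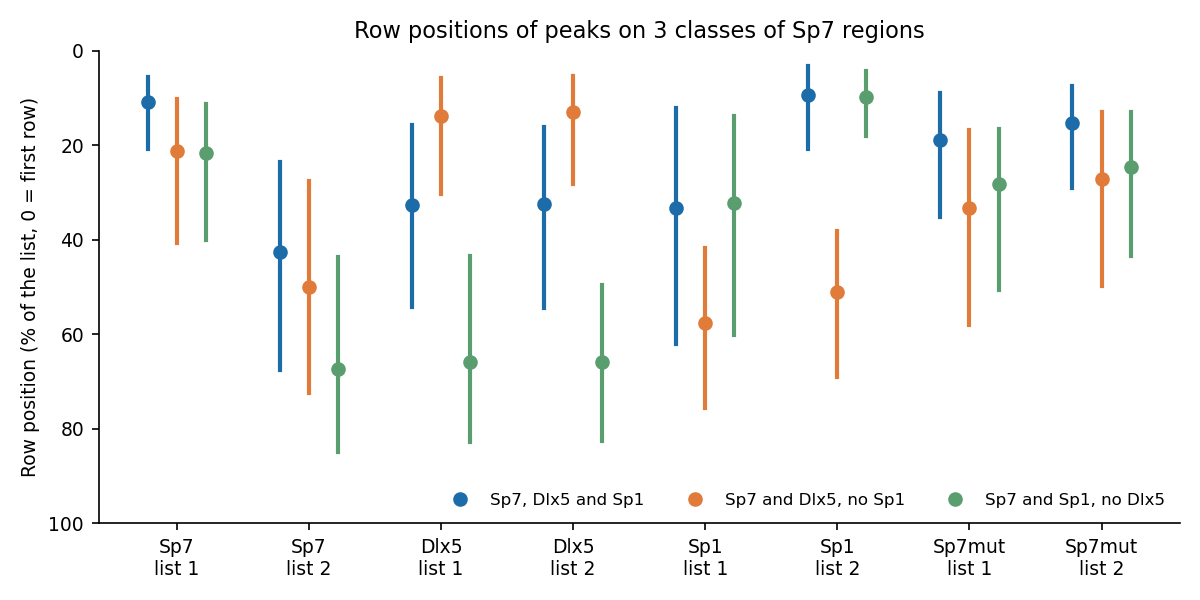
Row position of peaks, as a percentage of each list with 0 the first row, at triple regions, at Sp7 and Dlx5 regions without Sp1, and at Sp7 and Sp1 regions without Dlx5. Points are medians and lines run from the lower to the upper quartile over the regions with a peak in that list; triple regions stand, at 32.6% and 32.5%, later in the Dlx5 lists than the 13.8% and 13.0% of regions without Sp1.

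Within the triple regions, the order of Dlx5 peaks did not follow that of Sp1 peaks. Across members, row positions in a Dlx5 and an Sp1 list had Spearman correlations of -0.238 to -0.204 over the 4 pairs of lists. Sp7 positions followed both partners in part, at 0.233 to 0.343 with Dlx5 and 0.308 to 0.426 with Sp1. Replicates reached 0.736 (Sp7), 0.836 (Dlx5), 0.928 (Sp1) and 0.816 (Sp7mut). These are correlations across 946 to 1071 regions, which are not independent replicates and share their libraries.

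Sp7mut positions followed Sp1 more than Dlx5 at these regions. The correlations were 0.432 to 0.575 with the Sp1 lists and 0.109 to 0.203 with the Dlx5 lists, and the ranges did not overlap. With the Sp7 lists they were 0.627 to 0.727, above those with Sp1. For Sp7 itself, the highest value with Dlx5 exceeded the lowest with Sp1, so its ranges overlapped. Sp1 and Sp7mut share an input library, and the part of that library in the likeness was not tested.

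Distances between peaks gave a related order. Over the 4 pairs of lists, Sp7mut and Sp1 midpoints lay 22.5 to 30.5 bp apart at the median, and Sp7mut and Dlx5 midpoints 34.5 to 37 bp. Wild-type Sp7 peaks lay at 30.5 to 36.5 bp from Sp1 and 32.5 to 36 bp from Dlx5, which overlap. Dlx5 and Sp1 peaks lay farthest apart, at 40 to 45.5 bp. Replicates lay 27 bp (Sp7), 30 bp (Dlx5), 20.5 bp (Sp1) and 22 bp (Sp7mut) apart, so that only the Dlx5 to Sp1, Dlx5 to Sp7mut, Sp7 to Dlx5 and Sp7 to Sp1 distances exceeded all 4 of these. Every peak counted here had to meet the Sp7 region, which limits all of these distances. The rule did not require Dlx5 and Sp1 to meet each other, which allows their peaks to lie farther apart. At members, single peaks had median widths of 189 and 180 bp in the Dlx5 lists and 150 and 145 bp in the Sp1 lists. Sp7mut and Sp1 midpoints lay 25.8 to 38 bp apart at Sp7 and Sp1 regions without Dlx5. The distances, and the part of peak width in them, were not tested.

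**Figure D4:**
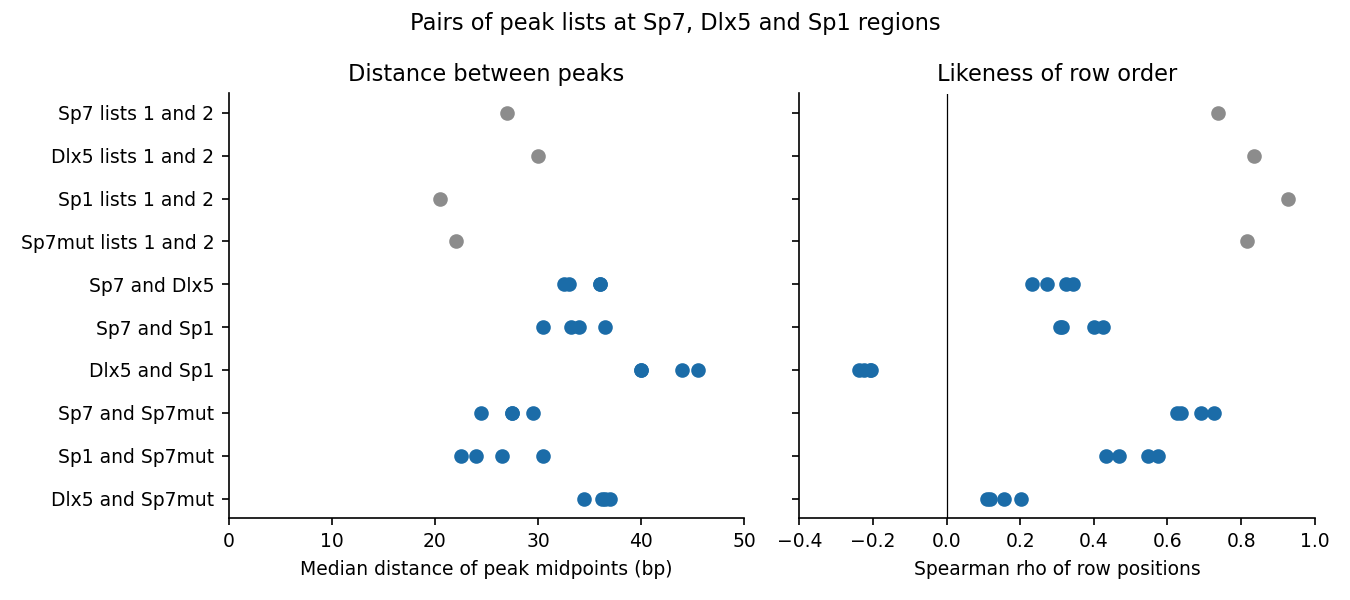
Left, median distance in bp between peak midpoints at triple regions for each pair of lists; right, Spearman correlation of row positions across the same regions. Grey points are replicates of a factor and blue points pairs of lists from different factors. Dlx5 and Sp1, which the rule did not require to meet each other, lie farthest apart, at 40 to 45.5 bp. They have the only negative correlations.

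Sp7 was the middle peak of the 3 more often than either partner. Its mean midpoint lay between those of Dlx5 and Sp1 at 450 of 1071 members (42.0%), while Dlx5 was in the middle at 305 (28.5%) and Sp1 at 310 (28.9%). By the rule each partner had to meet the Sp7 region, and the partners did not have to meet each other. This favours Sp7 as the middle peak. The partner peaks were also taken as those nearest to Sp7, which favours Sp7 further where a region holds several. The order was therefore not tested. Sp7 was nearer to Dlx5 at 558 members and nearer to Sp1 at 511. The midpoints of all 3 factors spanned 61.8 bp at the median, with 442 members (41.3%) within 50 bp and 85 (7.94%) over 200 bp.

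Members were wider and less sharply placed than regions of both cell systems. The median width of the merged Sp7 region was 229 bp at triple regions and 210 bp at Sp7 and Dlx5 regions without Sp1. It was 252 bp at Sp7 and Sp1 regions without Dlx5, 231.5 bp at those with neither and 179 bp at regions of both cell systems. A wider region can meet other peaks more easily, and the part of width in the Sp7mut shares was not tested. Single Sp7 peaks at members had median widths of 164 and 169 bp, against 164 and 163 bp in the whole lists, so single peaks at members were of ordinary width. Dlx5 replicates lay 30 bp apart at triple regions, 20.5 bp at Sp7 and Dlx5 regions without Sp1 and 12.5 bp at regions of both cell systems. More than 1 peak of a list was rare, at 1.87% to 4.48% of members over the 8 lists.

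The 10 members highest in the lists all held Sp7mut, where 87.9% of all members did. By mean row position over the 6 lists of Sp7, Dlx5 and Sp1, the first was chr2:168032875-168033043, at rows 154 and 201 of the Sp7 lists, 534 and 2337 of Dlx5, and 272 and 238 of Sp1. The second was chr2:91489963-91490237, at rows 274 and 286 of Sp7, 450 and 527 of Dlx5, and 418 and 658 of Sp1. The third was chr11:102994253-102994395, with Sp1 rows of 30 and 64 and Sp7 rows of 385 and 668. An Sp7mut region lay on all 10 leading members and on 95 of the first 100. Among members in quintile 1 of the Sp7 list, 97.1% met one, so these counts are not particular to the leading members.

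Some leading members stood far higher in one factor than in the others. At chr8:112217164-112217339, of rank 9, Sp1 peaks were in rows 2 and 3, Sp7 peaks in rows 249 and 866 and Dlx5 peaks in rows 2542 and 3136. At chr10:74980603-74980763, of rank 5, Sp1 rows were 71 and 95 and Dlx5 rows 2013 and 2461, and the 3 midpoints lay within 10.3 bp. At chr9:44689441-44689684, of rank 8, a peak of primary Sp7 list 2 was also present, and none of list 1. The rest of the first 10 were chr6:71583151-71583360, chr10:79896496-79896788, chr6:40421243-40421447 and chr16:30587830-30588027.

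At some members the mean midpoints of the 3 factors almost coincided. Replicates of these factors lay 20.5 to 30 bp apart at the median, so spans below that do not place the factors on the same base. Outside the first 10 and with all 6 lists in their first 50% of rows, the closest was chr11:117280436-117280647, where the midpoints of Sp7, Dlx5 and Sp1 spanned 0.75 bp. It stood at rows 305 and 1101 of the Dlx5 lists and at rows 5188 and 6775 of the Sp1 lists. The next were chr4:136604543-136604728, with a span of 1 bp, chr5:31829098-31829392 with 2 bp, chr9:21397242-21397407 with 4 bp and chr6:40275357-40275537 with 5.25 bp. All 5 held an Sp7mut region, where 87.9% of all members did.

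The widest members held several peaks. The widest, chr5:22938456-22939695, spanned 1240 bp and joined 6 Sp7 peaks, and its nearest Dlx5 and Sp1 midpoints spanned 292 bp with that of Sp7. The others of the 5 widest were chr17:73267274-73268139, chr19:46578181-46578974, chr15:76867669-76868456 and chr19:27504117-27504890, of 774 to 866 bp. Each of the 5 held an Sp7mut region, where 87.9% of all members did.

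Of the 130 members without a shared Sp7mut region, the highest had rank 41 among the 1007 with a peak of all 6 lists on the Sp7 region. It was chr10:128063532-128063846, where both Sp7mut lists had a peak but the peaks did not meet each other. The next was chrX:166417065-166417305, with no Sp7mut peak in either list, at rows 224 and 521 of the Sp7 lists, 5216 and 5462 of Dlx5 and 1690 and 1491 of Sp1. At chr17:17511219-17511567 a peak of Sp7mut list 1 alone was found, and at chr17:3084231-3084512 none, while primary Sp7 list 2 had a peak there. Over all members, 20 (1.87%) had no Sp7mut peak in either list, against 427 (18.2%) of Sp7 and Dlx5 regions without Sp1.

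Triple regions seldom stood beside one another. Another member lay within 10 kb of 77 triple regions (7.19%, interval 5.72 to 8.90), where 4.84% of all Sp7 regions had a member that close. These 77 formed 37 pairs and 1 run of 3, at chr15:76027009-76034816, all 3 of which held Sp7mut, where 87.9% of all members did. Other Sp7 regions were within 10 kb of 18.9% of members (20.2% of all Sp7 regions), and other Dlx5 regions of 47.2% (51.7%). Further Sp1 regions lay that near 28.0% of members, against 21.9% of all Sp7 regions, and further Sp7mut regions 28.1%, against 27.1%. At Sp7 and Dlx5 regions without Sp1, another Sp1 region was within 10 kb of 18.6% and another Dlx5 region of 53.3%. At Sp7 regions with neither partner, an Sp1 region was that near 31.4%, a Dlx5 region 58.0% and a member 7.29%. Nearby Sp1 regions and members were thus not particular to triple regions. These shares moved with the lists: without Sp1 list 1, another member was within 10 kb of 11.7% of members and another Sp1 region of 55.7%. Without Sp7 list 2, another member was that close to 13.3%.

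Chromosomes differed in how many of their Sp7 regions were triple regions. The share was highest on chromosome 6, at 138 of 510 (27.1%), followed by chromosome 11, at 107 of 413 (25.9%), and lowest on chromosome 12, at 11 of 115 (9.57%). Chromosome 6 alone held 12.9% of the members, and 25.2% of its Sp1 regions met a member. Sp7mut met 79.7% of the members there, the lowest share of any chromosome, and 96.6% on chromosome 3, the highest. Over the 19 autosomes the share of Sp7 regions that were triple was higher where protein-coding genes per Mb were more numerous (Pearson r = 0.631, Spearman rho = 0.684). With the 2 autosomes of most extreme gene density left out, r was 0.653. This is a description, with no test, of chromosomes that share the same libraries.

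**Figure D5:**
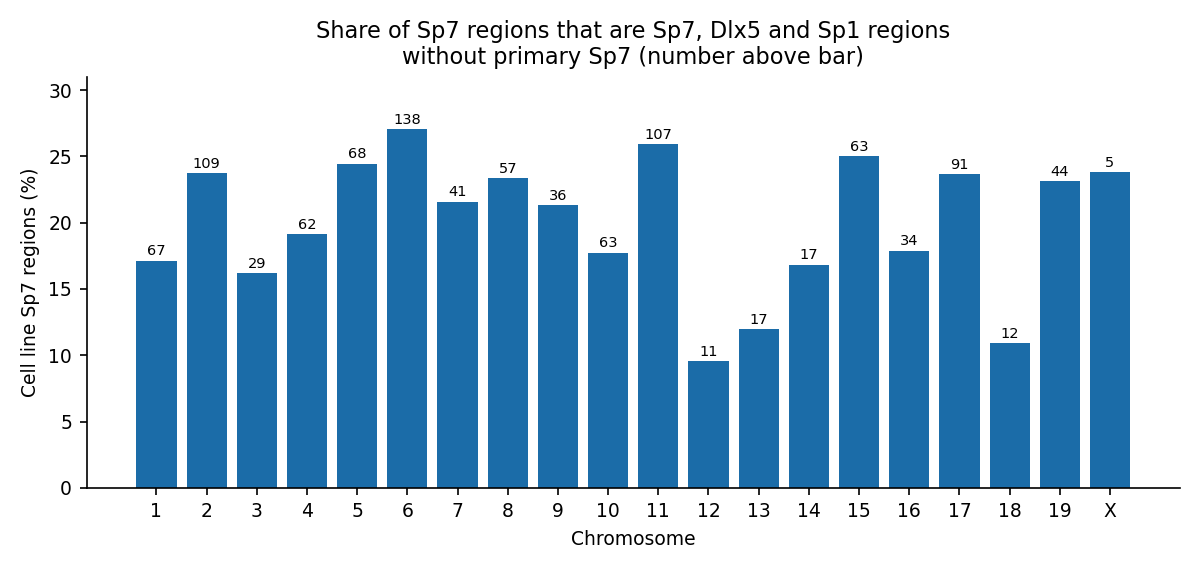
Percentage of the cell line Sp7 regions of each chromosome that were triple regions, with the number of triple regions above each bar. Chromosome 6 is highest, at 27.1%, and chromosome 12 lowest, at 9.57%.

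Primary Sp7 was not wholly absent from the triple regions. A peak of primary Sp7 list 1 lay on 23 (2.15%) of them and of list 2 on 72 (6.72%), where these lists met 18.6% and 21.3% of all cell line Sp7 regions, regions of both systems included. Either list had a peak on 94 members (8.78%, interval 7.15 to 10.6). Among Sp7 and Dlx5 regions without Sp1 the share was 9.19% (8.05 to 10.4), and among Sp7 and Sp1 regions without Dlx5 2.72% (1.31 to 4.95). The wild-type control had a peak on 4 members (0.373%), against 0.259% of all Sp7 regions, and its list is far shorter, with 183 peaks against 2666 and 3212. Peaks inside a shared primary region cannot lie on a member by the rule. Of the peaks outside them, 23 of 563 in list 1 (4.09%, interval 2.61 to 6.07) and 73 of 1106 in list 2 (6.60%, 5.21 to 8.23) lay on members, against 4 of 183 in the wild-type control (2.19%, 0.599 to 5.50). The intervals of both lists overlapped that of the control, and the difference was not tested. The GFP control had no peak there, which the rule requires.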

How the data were processed

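Each of 12 of the 15 samples has 1 deposited list; the other 3 are input DNA, not analysed here. The authors' lists hold chromosome, start and end on mm9, per the submitters' processing notes, a unit other than counts or scores, so depth and its precision are unknown. Inputs are named per the labels. What aligned the reads and called the peaks, and at which threshold, is not given in the sources used here. Chromatin was fixed with formaldehyde at 1%, per the labels.

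Groups and replicate numbers come from the titles. Peaks sharing at least 1 bp were merged and starts shown 1-based; merging touching peaks too gave 1072 members. Row positions and midpoints were read per list. Shares were compared with exact two-sided sign tests over 19 autosomes and X. Named regions were the 10 first by mean row position, the 5 widest, the 5 with closest midpoints, those nearest the threshold and the first 4 without Sp7mut. Members, classes and tests were chosen with earlier results of these data known. Genes per chromosome came from a GRCm38.p6 table, without its coordinates. Starts of transcription, GC content and motifs, and 7 gene lists, need an mm9 genome and were not analysed here. The code was tested on simulated lists. Python 3.11.15 ran scipy 1.17.1, numpy 2.4.6, pandas 2.3.3 and, for plots, matplotlib 3.10.9.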

Additional observations from a re-analysis of the deposited data

Results flagged for a closer look

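Peaks of the primary Sp7 lists that belong to no shared primary region lay on more triple regions than peaks of the wild-type control did: list 1 on 2.15% and list 2 on 6.72% of the 1071, against 0.373% for the control. They are given here because the rule set these peaks aside, and they are not particular to triple regions. At Sp7 and Dlx5 regions without Sp1 the shares were 3.19% and 6.04%, against 0.170% for the control. The control list is shorter: of the peaks outside shared primary regions, 4.09% in list 1 and 6.60% in list 2 lay on triple regions, against 2.19% in the control, with intervals that overlap. No group had the 4 samples that a search for a sample far from the others needs.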

How the results depend on the processing

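The difference in Sp7mut share between triple regions and Sp7 and Dlx5 regions without Sp1 kept its direction and passed the test in all 19 alternatives that gave it. The difference from Sp7 and Sp1 regions without Dlx5 passed in 12 and did not in 7. Where peaks had to share 50% or more of each other's length, there were 304 triple regions, Sp7mut met 77.0%, the smaller difference was 5.70 points, and midpoints lay 18.9 bp (Sp7 to Dlx5), 15.5 bp (Sp7 to Sp1) and 21.3 bp (Dlx5 to Sp1) apart. Another Dlx5 region, Sp1 region or member was then within 10 kb of 31.6%, 15.5% and 1.32%. With the wider 50% of each list the same values were 71 regions, 42.3%, 6.60 points, 30 bp and 28.6 bp for Sp7 with Dlx5 and Sp1, and 16.9%, 1.41% and 0% for neighbours. With the earlier 50% of rows they were 304, 91.8%, 0.215 points, 26.4, 21 and 32.2 bp, and 23.4%, 13.8% and 2.63%. With cell line groups of equal length they were 142, 91.5%, 25.6, 28.8 and 35.5 bp, and 12.0%, 14.8% and 1.41%. Within 50 kb the neighbour shares were 85.4%, 66.5% and 22.4%. Midpoints of merged regions were 36.5 bp apart for Sp7 and Dlx5 and 50 bp for Dlx5 and Sp1. Within quintiles the smaller difference was 2.30 points. The cause of these changes was not tested, and the settings that shortened the lists left fewer peaks.

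Leaving out 1 list of a factor, or the same replicate of every factor, gave 1071 to 2604 triple regions, an Sp7mut share of 70.7% to 94.5%, and differences of 16.9 to 43.3 points (Sp7 and Dlx5 without Sp1) and 5.39 to 21.2 points (Sp7 and Sp1 without Dlx5). Midpoint distances were 33.4 to 43 bp (Sp7 to Dlx5), 33.6 to 44.5 bp (Sp7 to Sp1) and 40.6 to 56.3 bp (Dlx5 to Sp1), and neighbour shares 45.7% to 65.7%, 27.5% to 56.6% and 7.19% to 14.4%. The median row position in the Sp7 lists, 28.2%, lay between 23.9% and 50.4%. Keeping control peaks gave 1089 triple regions, ignoring primary Sp7 1149, and barring any primary Sp7 peak 977. Merging touching peaks and comparing within quintiles were chosen after seeing the data. Alternatives on transcription starts, GC content and motifs were not run, since no mm9 genome was used. No paired analysis was possible because the lists hold no values and the tests run over chromosomes, not samples. Depth is unknown, so a missing peak is not an absence of binding.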
